A study of Mus musculus with 12 samples.

Results

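The genes described here are 10 established markers of macrophages and dendritic cells, read in bulk RNA-seq libraries of mouse gut epithelial cells. They were taken by symbol, as the rows named Lyz2, Cd68, Csf1r, C1qa, C1qb, C1qc, Itgam, Itgax, Tyrobp and Fcer1g. All 10 were present among the 14244 gene rows of the expression table, and all 10 passed the filter for testing, a mean normalized count of at least 10 over the 12 libraries. The study set 5 wild type (WT) mice against 7 Chd8L+/- mice, all of them male C57BL/6 littermates aged 8 weeks. It asked how loss of 1 copy of the large isoform (Chd8L) of the chromatin remodeller Chd8 affects gut transcription. In Chd8L+/- mice an internal run of Chd8 exons is deleted from 1 allele in every cell of the body, so the leukocytes of these mice carry the deletion too. Each library came from 1 mouse. Epithelial cells were freed from washed intestine by chelation and vortexing and were pelleted without any sorting step that the methods describe. The labels do not give the gut segment, the litters, or what the letters and numbers of the library names mean.

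Macrophages of the gut lie mostly in the lamina propria, just beneath the epithelium, where they take up bacteria and dying cells. They depend on signalling through the receptor encoded by Csf1r. Dendritic cells lie in the same layer and extend between epithelial cells, and carry antigen to lymph nodes. Several of the 10 genes are also transcribed in other cells of this tissue. Tyrobp and Fcer1g encode signalling adaptors that NK cells and some intraepithelial lymphocytes use as well, Itgax is found on activated intraepithelial T cells, Itgam is found on neutrophils and NK cells, and Lyz2 has a close paralog, Lyz1, that is a main secretory product of Paneth cells, the antimicrobial cells at the crypt base.

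The libraries held between 15691662 and 20761315 reads assigned to genes. Chd8 had 822.6 to 1050 normalized counts in the WT libraries and 1084 to 1483 in the Chd8L+/- libraries, but this sum over the whole gene does not resolve the deleted exons and so does not check the genotypes. The first principal component held 39.7% of the variance, and WT replicate 2 scored 41.0 on it, inside the Chd8L+/- range of 0.26 to 42.7 and away from the other WT libraries at -67.5 to -26.2. WT replicate 2 also stood apart in markers of other cells. Its summed tuft cell genes reached 2891 normalized counts against 12714 to 27883 in the other WT libraries, and its summed stromal and endothelial genes reached 489 against 62.2 to 136. Results for the macrophage and dendritic cell markers are therefore given with and without this library. It was singled out from these same data, so p-values without it are descriptive. Epcam, an adhesion protein of epithelial cells, checked the labelled cell type, with 42403 ± 9303 normalized counts in WT and 37046 ± 8734 in Chd8L+/- (SD, n = 5 and 7).

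The promoters of 4 of the genes are shown here because the differences between genotypes described below were largest for the C1q chains and Itgam, and Lyz2 was the most abundant of the 10. Each run is the 150 bases upstream of the RefSeq transcription start in GRCm38.p6, written 5′ to 3′ on the strand of the gene. Capitals mark the letters GAGGAA or their reverse complement TTCCTC, the core bound by PU.1, the factor encoded by Spi1 that myeloid cells depend on.
C1qb (chr4:136886201-136886350, minus strand): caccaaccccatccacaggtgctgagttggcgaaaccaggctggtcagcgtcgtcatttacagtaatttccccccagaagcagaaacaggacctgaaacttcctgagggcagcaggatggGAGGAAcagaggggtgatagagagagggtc
C1qc (chr4:136892915-136893064, minus strand): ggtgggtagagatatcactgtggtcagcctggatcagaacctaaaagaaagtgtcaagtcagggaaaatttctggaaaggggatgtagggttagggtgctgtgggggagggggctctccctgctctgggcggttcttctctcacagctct
Itgam (chr7:128062490-128062639, plus strand): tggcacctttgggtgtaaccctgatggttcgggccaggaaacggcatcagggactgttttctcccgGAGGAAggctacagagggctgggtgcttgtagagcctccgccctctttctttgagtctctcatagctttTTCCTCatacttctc
Lyz2 (chr10:117282273-117282422, minus strand): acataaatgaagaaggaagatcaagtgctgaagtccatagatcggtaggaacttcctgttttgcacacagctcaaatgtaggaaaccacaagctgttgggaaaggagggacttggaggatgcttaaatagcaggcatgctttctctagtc
Promoter entries were searched for 7 of the 10 genes. The letters occurred in 2 of these 7, in C1qb once with its first base at -30 and in Itgam at -84 and -15, on either strand. Of all 32851 promoter entries, 14.5% held them in the same window. The RefSeq start of C1qb was not that of the GENCODE transcript, so the position is relative to the RefSeq start only.

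The 3 chains of C1q, the recognition subunit of the classical complement pathway, lie side by side on the minus strand of chromosome 4 (GRCm38), C1qb at 136880129 to 136886187, C1qc at 136889804 to 136893065 and C1qa at 136895917 to 136898803. Tissue macrophages are the main source of C1q. All 3 chains had higher mean levels in the Chd8L+/- libraries, by 1.83 to 2.29 times, with WT replicate 2 inside the Chd8L+/- range for each of them. None passed the threshold of an adjusted p of 0.05 in limma over all 12808 genes tested. All 3 passed it when WT replicate 2 was left out, as did 14.0% of all genes as higher. WT replicate 2 was the highest WT library for each chain, so leaving it out could only raise these differences. In bulk RNA, more cells of a type and more RNA per cell cannot be told apart.

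C1qa had 21.3, 88.3, 36.3, 41.7 and 23.8 normalized counts in WT replicates 1 to 5, and a lowest value of 46.4, a median of 75.4 and a highest value of 178 in the Chd8L+/- libraries. The groups overlapped through WT replicate 2 alone, since all 7 Chd8L+/- libraries lay above the other 4 WT libraries. The means were 42.3 ± 27.1 in WT (SD, n = 5) and 90.3 ± 46.4 in Chd8L+/- (SD, n = 7). C1qa thus differed by 1.12 on the log2 scale with a standard error of 0.39 (limma on log2 of the normalized count + 1, adjusted p = 0.128, exact two-sided permutation p = 0.0265, unadjusted). Without WT replicate 2 the log2 fold change of C1qa was 1.43 and its limma adjusted p was 0.0115.

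C1qb had 13.3, 59.9, 33.3, 40.7 and 10.03 normalized counts in WT, and a lowest value of 29.3, a median of 41.8 and a highest value of 115 in Chd8L+/-. Only 2 Chd8L+/- libraries, replicates 5 and 7, exceeded WT replicate 2, and 6 exceeded the WT median. Its log2 fold change was 0.97 with a standard error of 0.45 (limma adjusted p = 0.205, exact permutation p = 0.0884), and 1.27 without WT replicate 2 (limma adjusted p = 0.0479).

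C1qc was the chain with the fewest reads, as few as 4 in WT replicate 1. It had 3.6, 48.7, 8.1, 23.8 and 18.8 normalized counts in WT, and a lowest value of 19.9, a median of 34.7 and a highest value of 114 in Chd8L+/-. The same 2 Chd8L+/- libraries exceeded the highest WT library, and all 7 exceeded the WT median. Its log2 fold change was 1.33 with a standard error of 0.58 (limma adjusted p = 0.181, exact permutation p = 0.0631), and 1.75 without WT replicate 2 (limma adjusted p = 0.0323).

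Summed, the chains had 38.2 to 197 normalized counts in WT and 107 to 408 in Chd8L+/-. Per kilobase of exon the ranking was C1qa, C1qb, C1qc, with WT means of 40.7, 28.9 and 10.7 normalized counts per kb. Of the sum of the chains per kilobase of exon, C1qa held 52.0% ± 5.4 in WT and 53.6% ± 5.8 in Chd8L+/-, and C1qc held 12.7% ± 7.4 and 13.9% ± 2.7 (SD, n = 5 and 7). The shares of both chains thus overlapped between genotypes. Stromal and endothelial genes moved with the chains: the Pearson r with the mean of that list over the 12 libraries, after each genotype's mean was removed, was 0.79 for C1qa, 0.59 for C1qb and 0.64 for C1qc. Here and below, each gene of a list was scaled by its SD before the mean of the list was taken. The 8 stromal and endothelial genes tested all had a higher mean in Chd8L+/-, 4 of them with an unadjusted limma p not above 0.05, against 12.5% of all genes. Their log2 fold changes ran from 0.14 for Pecam1, an endothelial adhesion protein, to 2.77 for Col3a1, a fibrillar collagen chain of fibroblasts. Over the 11 genes of this list that were present, the summed level ranged over 62.2 to 489 normalized counts in WT and 99.2 to 2545 in Chd8L+/-. None of these genes was at 0 in every library. Their part in the C1q result was not tested.

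**Figure D1:**
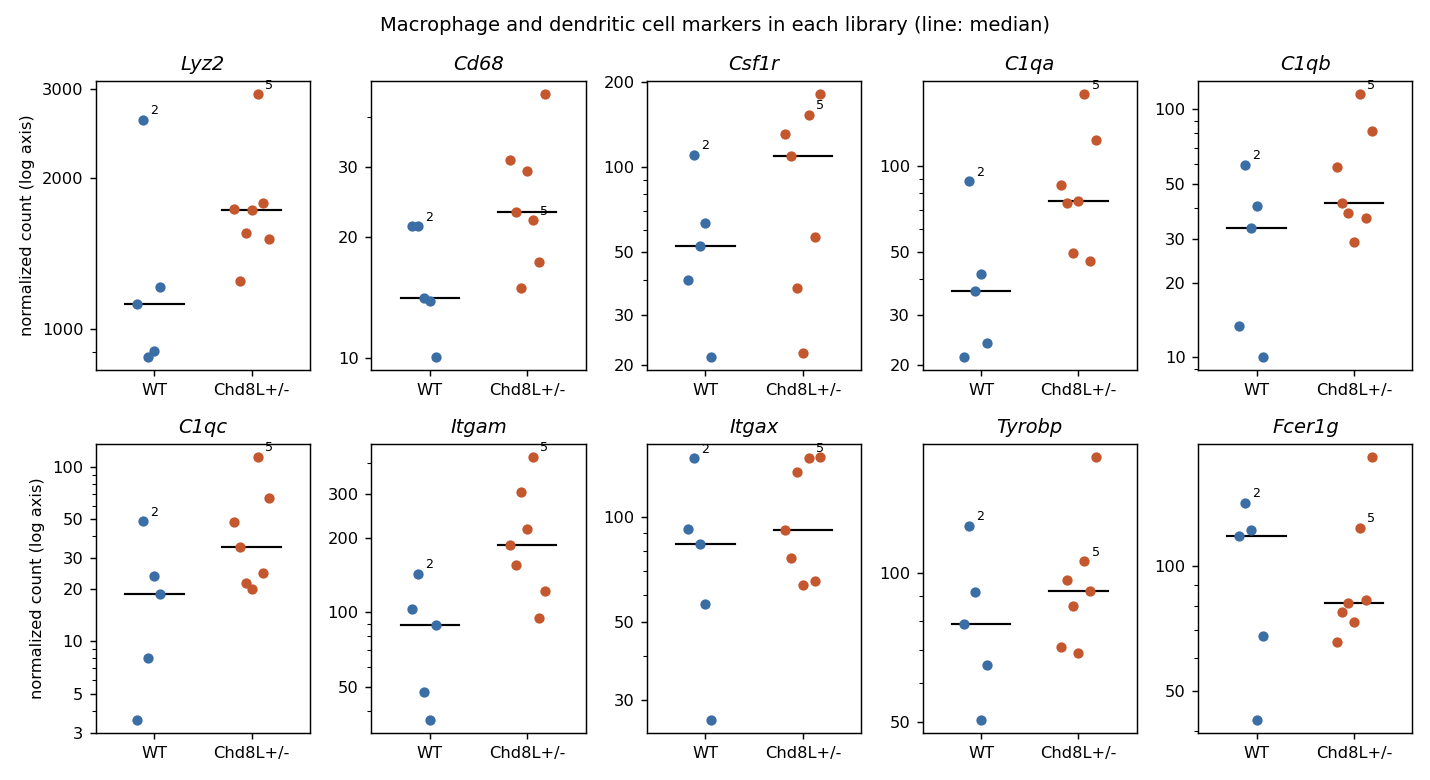
Normalized count (log axis) of the 10 marker genes, 1 point for each library, with WT left and Chd8L+/- right in each panel, a line at the group median, and numerals marking WT replicate 2 and Chd8L+/- replicate 5. WT replicate 2 was the highest WT library for 9 of the 10 genes, and no gene had groups that did not overlap.

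Csf1r encodes the receptor for the macrophage growth factors Csf1 and Il34. It lies on chromosome 18 (61100598 to 61132149, plus strand, GRCm38), where it overlaps Hmgxb3 on the other strand, and the use of strand in counting is not given. Hmgxb3 had a mean of 288 normalized counts. Csf1r had 40.0, 110.6, 52.4, 63.5 and 21.3 normalized counts in WT, and a lowest value of 21.99, a median of 109 and a highest value of 181 in Chd8L+/-. The Chd8L+/- libraries split, with replicates 3, 4 and 6 at or below 56.4 and the other 4 at or above 109, so the groups overlapped along most of their ranges. The log2 fold change was 0.64 with a standard error of 0.53 (limma adjusted p = 0.463, exact permutation p = 0.307). The difference did not exceed the spread between libraries, also without WT replicate 2 (0.92, limma adjusted p = 0.219), and was 0.34 without WT replicate 5.

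Csf1r varied together with the C1q chains. Across the 12 libraries, after each genotype's mean was removed, its r was 0.84 with C1qb, 0.74 with C1qa and 0.67 with C1qc. It was also 0.88 with Mpeg1, a pore-forming protein of phagocytes, and 0.85 with Adgre1, which encodes the macrophage antigen F4/80. Both were named after their values were seen, and Adgre1 rested on as few as 2 reads in a library. With the mean of the other macrophage and monocyte genes the r of Csf1r was 0.76. The r of Csf1r was -0.02 with Itgam. These are descriptions over 12 libraries that share a preparation and differ in depth. Of the colony-stimulating factors and their receptors, 5 were tested, with a median log2 fold change of 0.50. Csf1 had the highest (1.37, standard error 0.57, limma adjusted p = 0.170), from 6.6 ± 5.0 normalized counts in WT, and Il34 the lowest (-0.90, standard error 0.35, limma adjusted p = 0.153).

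Cd68, a lysosomal glycoprotein of phagocytes, was the least abundant of the 10 by mean normalized count. It had 21.3, 21.3, 14.1, 13.9 and 10.03 normalized counts in WT, resting on 8 to 24 reads, and a lowest value of 14.9, a median of 23.1 and a highest value of 45.5 in Chd8L+/-. All 7 Chd8L+/- libraries exceeded the WT median and 5 exceeded the highest WT library. The log2 fold change was 0.63 with a standard error of 0.32 (limma adjusted p = 0.229, exact permutation p = 0.0543). Cd68 was the only marker for which WT replicate 2 was not the highest WT library, by a margin smaller than the value of 1 read, and leaving that library out did not bring it past the threshold (0.74, limma adjusted p = 0.115).

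Itgam and Itgax encode the alpha chains of the β2 integrins CR3 and CR4, which bind the complement fragment iC3b. They are neighbours on the plus strand of chromosome 7, Itgam at 128062640 to 128118491 and Itgax at 128129547 to 128150657 (GRCm38). Itgam had 103.1, 143.1, 47.4, 36.7 and 89.0 normalized counts in WT, and a lowest value of 94.7, a median of 187 and a highest value of 425 in Chd8L+/-. All 7 Chd8L+/- libraries exceeded the WT median and 5 exceeded the highest WT library, while replicates 6 and 7 lay within the WT range. The means were 83.9 ± 43.2 (SD, n = 5) and 215 ± 115 (SD, n = 7).

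With all libraries Itgam had the largest difference of the 10 genes, a log2 fold change of 1.35 with a standard error of 0.40. Its adjusted p was 0.121 in limma, 0.121 in edgeR and 0.0224 in DESeq2, so the call depended on the tool. The exact permutation p was 0.0139, unadjusted. Without WT replicate 2 the log2 fold change was 1.58 (limma adjusted p = 0.0123). Of the 75-base windows of the Itgam transcript, 71.7% also occur in transcripts of Gm49368, an overlapping gene model on the same strand, so how the counting assigned such reads could set the level. Gm49368 had no row in the expression table, and whether the counting included it is not known.

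Itgam did not follow the C1q chains (r of 0.08 to 0.31 after genotype means were removed) and followed Lyz2 (0.70). It ran against the tuft cell genes: its r with the mean of that list was -0.89 after genotype means were removed. The same r was 0.64 with the stromal and endothelial genes, 0.73 with the other complement genes and 0.63 with the MHC class II genes. All 10 tuft cell genes had a lower mean in Chd8L+/-, each with an unadjusted limma p below 0.05 and none past the adjusted threshold, with a median log2 fold change of -1.86. Their summed level ranged over 2891 to 27883 normalized counts in WT and 1692 to 11738 in Chd8L+/-. The part of tuft or stromal cell content in the Itgam difference was not tested. Neutrophils also carry Itgam, and of 12 neutrophil genes listed 3 were in the table, with summed levels of 31.3 to 78.1 normalized counts in WT and 56.4 to 122 in Chd8L+/-. The highest log2 fold change among them was that of Mmp9, a secreted gelatinase (1.93, standard error 0.69, limma adjusted p = 0.135), and the lowest that of Ltf, lactoferrin (0.26, standard error 0.57). Their part in the Itgam difference was not tested.

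Itgax had 92.4, 147.1, 83.7, 56.5 and 26.3 normalized counts in WT, and a lowest value of 63.9, a median of 91.5 and a highest value of 149 in Chd8L+/-. All but 2 of the Chd8L+/- libraries lay within the WT range, and 4 exceeded the WT median. The log2 fold change was 0.47 with a standard error of 0.37 (limma adjusted p = 0.442, exact permutation p = 0.284), and 0.74 without WT replicate 2 (limma adjusted p = 0.139) but 0.13 without WT replicate 5. Of the 75-base windows of Itgax, 6.04% occur in the paralog Itgad as well. Of the other genes of the β2 integrin family, its ligands and its activator, 5 were tested and none reached an unadjusted limma p of 0.05, against 24.3% of all genes in either direction. Their log2 fold changes ran from -0.25 for Fermt3, which activates these integrins in blood cells, to 0.66 for Itgal, the alpha chain of LFA-1. Itgb2, the shared beta chain, followed Itgax (r = 0.81) more than Itgam (r = 0.39).

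**Figure D2:**
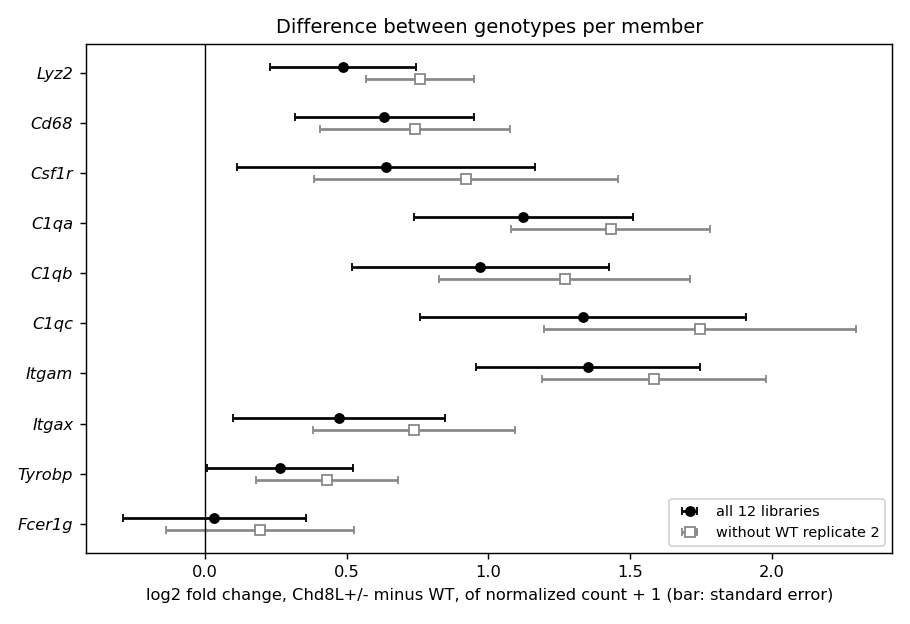
Log2 fold change of the normalized count + 1, Chd8L+/- minus WT, for the 10 marker genes, from limma on all 12 libraries (filled circles) and without WT replicate 2 (open squares), with bars of 1 standard error. Itgam (1.35), C1qc (1.33) and C1qa (1.12) had the highest values with all libraries, Fcer1g (0.03) the lowest, and every value was higher without WT replicate 2.

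Tyrobp and Fcer1g encode short membrane adaptors, DAP12 and the Fc receptor gamma chain, whose ITAM motifs recruit the kinase Syk. Tyrobp had 79.1, 124.8, 91.8, 50.6 and 65.2 normalized counts in WT, and a lowest value of 69.1, a median of 92.0 and a highest value of 172 in Chd8L+/-. Apart from Chd8L+/- replicate 7, every Chd8L+/- library lay within the WT range. The log2 fold change was 0.27 with a standard error of 0.26 (limma adjusted p = 0.541, exact permutation p = 0.350), and 0.43 without WT replicate 2 (limma adjusted p = 0.218) but 0.11 without WT replicate 4 and 0.12 without Chd8L+/- replicate 7.

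Fcer1g had 118.2, 142.1, 122.0, 42.6 and 67.7 normalized counts in WT, and a lowest value of 65.6, a median of 81.2 and a highest value of 183 in Chd8L+/-. Only 2 Chd8L+/- libraries exceeded the WT median and 5 lay below it. The means were 98.5 ± 41.6 (SD, n = 5) and 98.1 ± 41.8 (SD, n = 7), and the log2 fold change was 0.03 with a standard error of 0.32 (limma adjusted p = 0.960, exact permutation p = 0.914). Its sign turned with the processing, to -0.10 after quantile normalization and -0.0098 in DESeq2, and was 0.20 without WT replicate 2 (limma adjusted p = 0.693).

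The adaptors had the closest relation of any 2 of the 10 genes, with an r of 0.93 after genotype means were removed. They followed the genes of intraepithelial T cells and NK cells, with an r against the mean of that list of 0.84 for Fcer1g and 0.73 for Tyrobp. The same r was 0.69 for Itgax, 0.42 for Cd68, 0.11 for Csf1r, 0.31 for C1qa and -0.04 for C1qc. Conversely, the r against the other macrophage and monocyte genes was 0.76 for Csf1r, 0.75 for C1qa and 0.75 for C1qb, and 0.33 for Tyrobp and 0.30 for Fcer1g. The division was not sharp, since that r was 0.59 for C1qc, 0.55 for Itgax and 0.46 for Cd68. With the mean of the other 9 markers, r was 0.76 for Itgax, 0.70 for Tyrobp and 0.65 for Fcer1g. Of the 14 intraepithelial T and NK cell genes tested, 7 had a higher and 7 a lower mean in Chd8L+/-, none of them with an unadjusted limma p below 0.05, against 24.3% of all genes in either direction. Over the 15 genes of this list that were present, the summed level was 2911 to 7079 normalized counts in WT and 3174 to 8616 in Chd8L+/-. Chd8L+/- replicate 7, the highest for both adaptors, was the highest for this list too.

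Of the other receptors and kinases of ITAM signalling, 8 were tested, 6 with a higher and 2 with a lower mean in Chd8L+/-. The highest log2 fold change was that of Clec7a, which encodes the β-glucan receptor Dectin-1 (1.18, standard error 0.58, limma adjusted p = 0.225). The lowest was that of Plcg2, a phospholipase downstream of Syk (-0.83, standard error 0.30, limma adjusted p = 0.134), which tuft cells also transcribe.

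**Figure D3:**
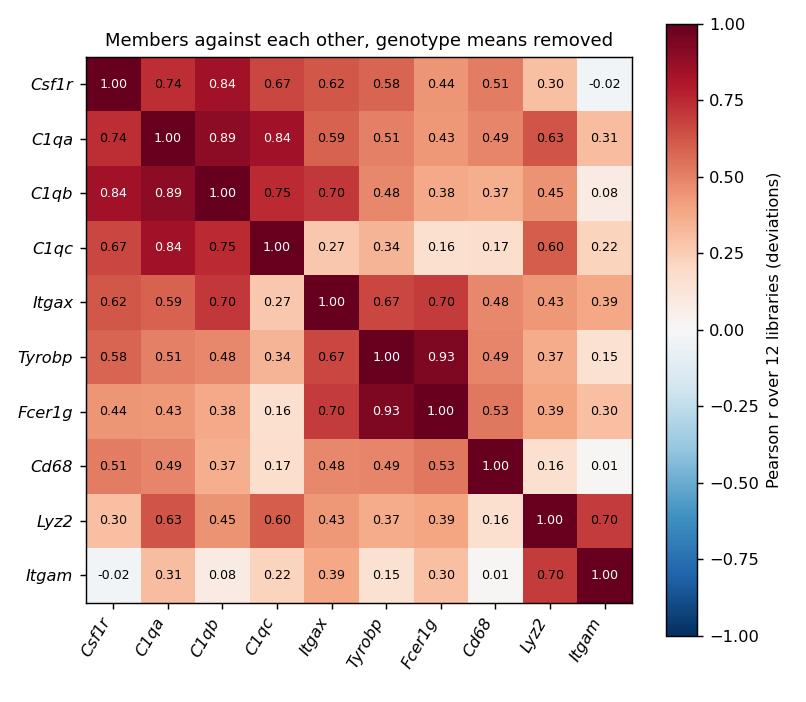
Pearson r between each pair of the 10 marker genes over the 12 libraries, computed on log2 of the normalized count + 1 after each genotype's mean was removed, with the genes in the same order on both axes. Csf1r and the C1q chains (0.67 to 0.89) and Tyrobp with Fcer1g (0.93) form blocks, Itgam has its highest value with Lyz2 (0.70), and the median over the 45 pairs is 0.48.

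Lyz2 encodes the lysozyme of macrophages and neutrophils. It lies on the minus strand of chromosome 10 (117277331 to 117282321, GRCm38) next to Lyz1 (117287797 to 117292868). Lyz2 was by far the most abundant of the 10, with 1122, 2606, 880.2, 906.5 and 1211 normalized counts in WT, and a lowest value of 1246, a median of 1727 and a highest value of 2927 in Chd8L+/-. The lowest Chd8L+/- library stood above 4 of the 5 WT libraries, and WT replicate 2 stood above all but 1 of the Chd8L+/- libraries.

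The means of Lyz2 were 1345 ± 719 (SD, n = 5) and 1782 ± 537 (SD, n = 7). They differed by 0.49 on the log2 scale with a standard error of 0.26 (limma adjusted p = 0.255, exact permutation p = 0.131). Without WT replicate 2 it was 0.76 (limma adjusted p = 0.0127). Lyz2 thus held 57.3% to 78.5% of the summed normalized counts of the 10 genes in every library, and a sum over the list is mostly a reading of Lyz2.

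Lyz2 followed Lyz1 from library to library. Lyz1 had 20406 ± 11298 normalized counts in WT (SD, n = 5) and 26853 ± 7350 in Chd8L+/- (SD, n = 7), with a log2 fold change of 0.49, the same as for Lyz2. While Lyz2 itself varied 3.33-fold over the 12 libraries, the ratio of Lyz2 to Lyz1 stayed between 0.0609 and 0.0725. The ratio was 0.0665 ± 0.0032 in WT and 0.0663 ± 0.0042 in Chd8L+/- (SD, n = 5 and 7), and the mean log2 ratio differed by -0.0058 between genotypes (exact two-sided permutation p = 0.899, unadjusted). After genotype means were removed, r was 0.99 between Lyz2 and Lyz1. Against the means of lists, the r of Lyz2 was 0.62 with the other 9 markers, 0.14 with the other macrophage and monocyte genes, 0.46 with the Paneth cell genes, 0.68 with the stromal and endothelial genes and -0.72 with the tuft cell genes. The Paneth cell list includes Lyz1, so its r of 0.46 is in part that of Lyz2 with Lyz1. Of the 75-base windows of Lyz2, 5.96% occur in Lyz1, and of those of Lyz1, 6.22% occur in Lyz2. The ratio of Lyz2 to Lyz1, 0.0609 to 0.0725, was of a similar size to that share of Lyz1. Reads of the abundant Lyz1 could be counted for Lyz2, even as a large part of its level, and how the counting treated such reads is not given. Of the other 5 Paneth cell genes tested, all had a lower mean in Chd8L+/-, the lowest being that of Ang4, an antimicrobial ribonuclease (-1.93, standard error 0.54, limma adjusted p = 0.121). The part of Lyz1 reads, or of Paneth, stromal or tuft cell RNA, in the Lyz2 level was not tested.

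**Figure D4:**
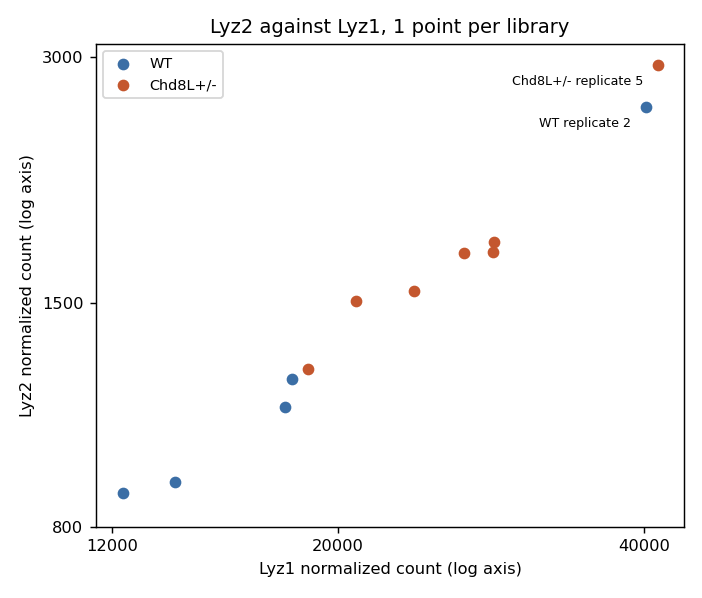
Normalized count of Lyz2 against that of Lyz1, 1 point for each of the 12 libraries, WT and Chd8L+/- in separate colours, both axes logarithmic. The points lie along 1 line, with ratios of Lyz2 to Lyz1 from 0.0609 to 0.0725, and WT replicate 2 lies at the upper end beside Chd8L+/- replicate 5.

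Taken over the list, the 10 genes had a higher mean log2 level in Chd8L+/- with a median log2 fold change of 0.64, against 0.014 over all 12808 genes tested. A log2 fold change above 0 was found for 10 of 10 of them, and for 51.4% of all genes tested. By an unadjusted limma p no greater than 0.05, 4 of the 10 were higher in Chd8L+/- (C1qa, C1qb, C1qc and Itgam), against 12.5% of all genes. After adjustment in limma, 0 of the 10 passed, against 0.0234% of all genes in either direction. In edgeR 0 of the 10 passed (0.039% of all genes) and in DESeq2 1 passed as higher, Itgam (1.84% of all genes), and 0 as lower (4.61%). None of the 10 had groups that did not overlap, as 0.515% of all genes did in either direction and 0.242% with Chd8L+/- higher.

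Without WT replicate 2, 5 of the 10 passed the adjusted threshold as higher in limma (Lyz2, C1qa, C1qb, C1qc and Itgam), against 14.0% of all genes. For Lyz2 this holds for the count as given, which may include reads of Lyz1. In the same fit 6 were higher where the unadjusted p was below 0.05, against 20.3% of all genes, and the median log2 fold change was 0.84. For Lyz2 and C1qa all 7 Chd8L+/- libraries then lay above every WT library, as for 6.69% of all genes. Leaving out Chd8L+/- replicate 5 in place of it gave a median of 0.57, with C1qa and Itgam the 2 whose unadjusted p was below 0.05 and with Fcer1g at -0.04. WT replicate 2 was the highest WT library for 9 of the 10 genes and for 33.9% of all genes. In the Chd8L+/- group, replicates 5 and 7 were the highest for 5 genes each, and replicate 4 was the lowest for 5.

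In level, the 10 genes lay between percentiles 26.4 (Csf1r) and 95.5 (Lyz2) of the table by normalized count per kb over all libraries. The Lyz2 level may include reads of Lyz1. Per kilobase of exon, WT means ran from 1022 normalized counts per kb for Lyz2, through 123 for Tyrobp, 113 for Fcer1g, 40.7 for C1qa and 28.9 for C1qb, to 16.9 for Itgax, 16.7 for Itgam, 12.8 for Cd68, 10.7 for C1qc and 9.97 for Csf1r. Tyrobp and Fcer1g differed by less than the SD between WT libraries, and so did C1qa and C1qb, and each pair of neighbours from Itgax down to Csf1r. For comparison, Ptprc, the leukocyte antigen CD45, had 77.8 per kb and Epcam 19318 per kb. Ptprc ran the other way from the markers between genotypes, at -0.64 on the log2 scale (standard error 0.28, limma adjusted p = 0.187) and an r with Itgam of -0.44 after genotype means were removed. Of the 8 pan-leukocyte genes tested, 3 had a higher and 5 a lower mean in Chd8L+/-, from Ptprc up to Cd53, a leukocyte tetraspanin, at 0.11. Their median log2 fold change was -0.016. Within WT, Ptprc and the summed tuft cell genes were both highest in replicate 4 and lowest in replicate 2. Within Chd8L+/- they differed, with replicate 7 highest for Ptprc and replicate 6 for the tuft cell genes. The part of tuft cell content in the Ptprc difference was not tested.

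Other genes of the same cells gave a divided picture. Of 20 other macrophage and monocyte genes listed, 15 were in the table and 12 were tested, 8 with a higher and 4 with a lower mean in Chd8L+/-, 3 of the former with an unadjusted limma p below 0.05, and a median log2 fold change of 0.55, or 0.35 without Chd8L+/- replicate 5. Of all genes tested, 12.5% were higher at an unadjusted limma p of 0.05 or less. Aif1, which encodes the macrophage protein IBA1, had the highest (1.36, standard error 0.53, limma adjusted p = 0.154), from 10.5 ± 10.1 to 24.6 ± 14.8 normalized counts (SD, n = 5 and 7). Adgre1 was near the floor at 2.52 per kb in WT, with 8.2 ± 9.1 normalized counts there and 16.2 ± 10.1 in Chd8L+/-.

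Of the other dendritic cell genes, 7 were tested, 4 with a higher and 3 with a lower mean. Siglech, a receptor of plasmacytoid dendritic cells, had the highest log2 fold change (1.07, standard error 0.44, limma adjusted p = 0.164), and Fscn1, the actin-bundling protein of mature dendritic cells, the lowest (-0.56, standard error 0.59, limma adjusted p = 0.579). The median of 0.61 was -0.35 without Chd8L+/- replicate 5. The MHC class II genes, through which these cells present antigen and which the epithelium also transcribes, had a median of 0.19 over 7 genes, from H2-DMa (-0.13) to their transactivator Ciita (0.59). That median depended on the library and the tool, at -0.21 without Chd8L+/- replicate 3, 0.61 without Chd8L+/- replicate 6 and 0.94 in edgeR. Their summed level varied from 1573 to 41784 normalized counts among the Chd8L+/- libraries alone.

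Among 10 other complement genes tested, C1s1, the protease partner of C1q, had the highest log2 fold change (2.14, standard error 0.87, limma adjusted p = 0.162) and Cd55, a regulator that dismantles the convertases, the lowest (-1.45, standard error 0.66, limma adjusted p = 0.196). The median was 0.82, and 0.23 without Chd8L+/- replicate 5 or 0.40 without WT replicate 3, with 2 genes higher and 1 lower where the unadjusted p was below 0.05. Of all genes tested, 12.5% were higher and 11.8% lower at an unadjusted limma p of 0.05 or less. The 6 genes of the phagocyte oxidase had a median of 0.06, with a range of -0.26 to 0.26 when 1 library was left out, from Rac2, its small GTPase (-1.51, standard error 0.40, limma adjusted p = 0.121), to Cybb, its catalytic chain (0.68, standard error 0.55, limma adjusted p = 0.453). Of 6 chemokines that attract myeloid cells and lymphocytes, 5 had a lower mean in Chd8L+/-, with Cxcl16 the lowest (-0.92, standard error 0.36, limma adjusted p = 0.154) and Ccl6 the highest (0.07, standard error 0.21, limma adjusted p = 0.855). The lists of less related cells served as checks. Of 10 epithelial genes, 3 had a higher and 7 a lower mean, from Krt18 (-1.08) to Krt19 (0.47), both keratins. All 7 B and plasma cell genes had a lower mean, the smallest difference being that of Jchain, which joins polymeric immunoglobulin (-0.15), with no unadjusted limma p below 0.05, against 11.8% of all genes lower. Of 3 mast cell and eosinophil genes, Siglecf, which tuft cells also transcribe, was the lowest (-2.06, standard error 0.67, limma adjusted p = 0.125) and Mcpt2, a mucosal mast cell protease, the highest (0.03). Of the 135 tested genes on all these lists, 0 passed the adjusted threshold in limma with all 12 libraries. In DESeq2 3 passed as higher, against 1.84% of all genes, and 15 as lower, against 4.61%, Cxcl16 among the latter (adjusted p = 0.0332). In limma without WT replicate 2, 12 passed as higher, against 14.0% of all genes. In that fit 22 passed as lower, against 13.6% of all genes, 9 of the 22 being tuft cell genes.

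**Figure D5:**
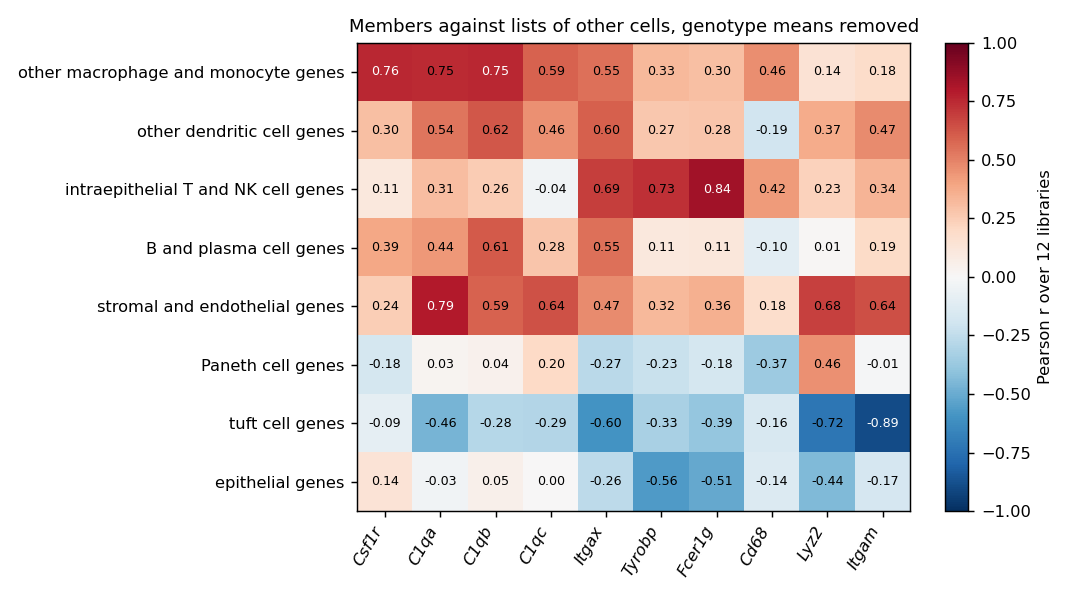
Pearson r over the 12 libraries between each of the 10 marker genes (columns) and the mean of 8 lists of genes of other cells (rows). Each genotype's mean was removed first, and each list gene was scaled by its SD before averaging. Csf1r, C1qa and C1qb are highest with the other macrophage genes or the stromal genes (0.75 to 0.79), Tyrobp and Fcer1g with the intraepithelial T and NK cell genes (0.73 and 0.84), and Itgam is at -0.89 with the tuft cell genes.

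Among the genes whose pattern over the 12 libraries was most like the mean of the 10, by r after genotype means were removed, were Cd93 (0.94), Col6a4 (0.91), Mycbp2 (0.88), Aif1 (0.87), Taf1c (0.87), Runx3 (0.86), Zfp74 (0.84), Zfp493 (0.84) and Neb (0.84). Cd93 encodes a receptor of endothelial and myeloid cells and had 6.7 ± 7.1 normalized counts in WT and 15.9 ± 12.8 in Chd8L+/- (SD, n = 5 and 7). Col6a4 encodes a chain of collagen VI. Of those named, Aif1 was also on the list of other macrophage genes.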

How the data were processed

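Poly(A) RNA of gut epithelial cells from 5 WT and 7 Chd8L+/- mice was sequenced by the authors as 75-base single-end reads and mapped to mm10 with Tophat2. The deposited signal values, normalized counts per gene, are read counts that the authors divided by a size factor of each library, with DESeq2 named in the submitters' processing notes. Which program counted reads, on which annotation and with what strand setting is not given in the sources used here. Dividing by the value of 1 read gave whole reads for 100% of values (tolerance 0.01). All 12 columns were matched to mice by library name. No p-value from the authors' own comparisons was used.

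Genes with a mean of at least 10 (12808 of 14244) were fitted with limma 3.58.1 on log2(value + 1), without covariates, with Benjamini-Hochberg adjustment over all of them and a threshold of 0.05. The fold changes are on this scale, which understates changes of low genes. For single genes, two-sided exact permutation tests ran over all 792 assignments of 12 libraries to 5 and 7 (smallest possible p 0.00126). The median log2 fold change over all genes moved by less than 0.1 between scalings. Alternatives were edgeR 4.0.16, DESeq2 1.42.0 (both on recovered reads), other pseudocounts, no filter, quantile normalization, blocks and each library left out. Lengths and positions came from GENCODE M21 (GRCm38, the build mm10), with lengths for 98.6% of genes, and promoters from RefSeq (GRCm38.p6). Scripts were tested on simulated data. The named genes were the 10 markers, Chd8, Lyz1, Ptprc, Epcam, the tested genes with the highest and lowest log2 fold change of each list, any past the adjusted threshold, and the 10 most like the markers. Adgre1, Mpeg1 and Itgb2 were added after their values were seen. A few genes that this rule would name are not reported here. The markers and the lists were chosen with earlier results of these data known. Intervals were not computed, and p-values set the difference between genotypes against the spread between these mice.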

Additional observations from a re-analysis of the deposited data

Results flagged for a closer look

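Lyz2 in Chd8L+/- replicate 5, at 2927 normalized counts, stood far from the other 6 Chd8L+/- libraries, which lay between 1246 and 1781, by Dixon's test of the gap against the range. It was the only one of 20 groups tested (10 genes in 2 genotypes), and chance flags about 1 in 20. Lyz1 was also highest in that library of its group, at 41215 normalized counts.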

How the results depend on the processing

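Over all genes, the number past the adjusted threshold was 0 higher and 3 lower in limma, 5 lower in edgeR, 231 higher and 580 lower in DESeq2, 175 and 276 with the letter of the library name as a block, and 0 lower with its number as a block. Leaving out 1 library at a time gave 0 to 1789 higher and 0 to 1745 lower, the highest counts being without WT replicate 2. The log2 fold changes ranged over 0.36 to 0.76 for Lyz2, 0.93 to 1.43 for C1qa, 0.65 to 1.27 for C1qb, 0.88 to 1.75 for C1qc and 1.10 to 1.58 for Itgam when 1 library was left out, and passed the threshold only without WT replicate 2. Itgam also passed in DESeq2 (1.36) and with the letter block (1.72, limma adjusted p = 0.0434). Fcer1g turned sign with quantile normalization (-0.10), edgeR (-0.00035), DESeq2 (-0.0098) and the letter block (-0.20), and ranged over -0.23 to 0.20 with 1 library left out. The median of the other dendritic cell genes ranged over -0.35 to 0.67. The number of the 10 genes higher at an unadjusted p of 0.05 or less was 4, 2 in edgeR, and 2 to 6 with 1 library left out. The causes were not tested. The low reads of C1qc, Cd68 and Adgre1 limit their precision.

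The labels give WT and Chd8L+/- mice shared replicate numbers. The deviations of same-numbered libraries correlated at 0.19, -0.34, -0.13, -0.17 and -0.23. Only for WT replicate 1 was the Chd8L+/- library of the same number the best match. These correlations gave no sign of a general pairing by number, but cannot exclude one, because other variation between libraries could mask it. With the replicate block, 0 genes were lower, 2 of the 10 genes reached an unadjusted p of 0.05 or less, and Fcer1g was at -0.13.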
